A study of Mus musculus with 4 samples.

Results

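The 133 genes described here are the small nucleolar RNAs (snoRNAs) and small Cajal body RNAs (scaRNAs) that carry a name in the mouse annotation. They were taken as every gene whose symbol starts with Snora, Snord or Scarna, leaving out Snord115 and Snord116, and are 133 of 55536 mouse genes in the tables. Of these, 82 are box C/D snoRNAs (Snord), 42 are H/ACA snoRNAs (Snora) and 9 are Cajal body RNAs (Scarna). The annotation holds a further 1426 genes of the same biotypes under other symbols.

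The RNA was total RNA, 300 ng per library, from T cells of the spleen of adult male B6CASTF1/J mice, 66 days old and virgin, an F1 cross in which the dam was C57BL/6 and the sire CAST/EiJ. The labels carry the term CD3, the T cell receptor complex, for these cells, and ERCC spike-in RNAs were added. There was 1 group of 4 libraries and no treatment or control group, so the data allow levels, and variation between libraries, to be described, but no contrast of conditions. The labels call the libraries separate biological replicates but give all of them 1 donor identifier, so the p-values below measure only the spread between these libraries, which may in part be technical.

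Small nucleolar RNAs guide chemical modification of other RNAs. Box C/D snoRNAs carry a box C near the start and a box D near the end and direct ribose methylation by fibrillarin. H/ACA snoRNAs end in an ACA box and direct pseudouridylation by dyskerin, and a few members of both classes instead take part in cutting the precursor of ribosomal RNA. Cajal body RNAs use the same boxes, sometimes both sets in 1 molecule, to guide modification of spliceosomal snRNAs. In mammals most of these RNAs lie in introns of host genes, many of which encode ribosomal proteins, and are released by splicing and trimming.

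The sequences below are shown for the members on which the results turn, as the mm10 transcripts of GENCODE M21 give them, 5′ to 3′ on the transcript strand, in DNA letters. Capitals mark the box C letters TGATGA where they occur in the first 15 bases, the box D letters CTGA in the last 12 bases, and the letters ACA in the last 7 bases. Snora73a (chr4:132352775-132352979, minus strand) and Snora73b (chr4:132352322-132352526, minus strand) are shown as a near-identical pair, Snord22 (chr19:8725866-8725991, plus strand) as the member that varied most beyond the trend, and Snord118 (chr11:69073427-69073561, plus strand) as a processing RNA with few counts.
Snora73a: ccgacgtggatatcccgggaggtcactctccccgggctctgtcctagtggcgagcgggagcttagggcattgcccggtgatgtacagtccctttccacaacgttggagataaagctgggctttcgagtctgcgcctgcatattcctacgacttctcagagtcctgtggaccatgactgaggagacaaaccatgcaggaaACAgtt
Snora73b: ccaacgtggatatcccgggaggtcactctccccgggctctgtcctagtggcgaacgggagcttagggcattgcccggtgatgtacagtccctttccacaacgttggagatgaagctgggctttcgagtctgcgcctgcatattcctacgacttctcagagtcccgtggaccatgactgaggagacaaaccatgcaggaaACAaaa
Snord22: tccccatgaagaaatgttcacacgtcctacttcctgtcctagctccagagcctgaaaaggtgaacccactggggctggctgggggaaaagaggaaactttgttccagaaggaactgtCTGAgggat
Snord118: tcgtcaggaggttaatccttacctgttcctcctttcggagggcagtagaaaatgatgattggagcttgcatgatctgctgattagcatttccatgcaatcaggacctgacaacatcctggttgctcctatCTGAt

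Snord15a (chr7:99482785-99482932, minus strand) and Snord15b (chr7:99479563-99479707, minus strand) are shown because they share the host gene Rps3 and yet differed in level. Snord17 (chr2:144265979-144266216, minus strand) is the longest box C/D member and Snora23 (chr7:110046364-110046547, plus strand) a well counted H/ACA member whose windows no other transcript held. Scarna6 (chr1:87784556-87784820, plus strand) is a Cajal body RNA that holds both C/D boxes. Snord47 (chr1:161038082-161038158, plus strand) and Snord32a (chr7:45127382-45127464, minus strand) stand for the short members that could take no count.
Snord15a: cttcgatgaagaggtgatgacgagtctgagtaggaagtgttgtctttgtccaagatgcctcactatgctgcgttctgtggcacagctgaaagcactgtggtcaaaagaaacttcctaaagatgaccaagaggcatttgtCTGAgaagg
Snord15b: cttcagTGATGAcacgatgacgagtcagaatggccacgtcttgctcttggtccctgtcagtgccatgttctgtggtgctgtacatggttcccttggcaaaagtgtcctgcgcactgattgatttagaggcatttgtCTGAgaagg
Snord17: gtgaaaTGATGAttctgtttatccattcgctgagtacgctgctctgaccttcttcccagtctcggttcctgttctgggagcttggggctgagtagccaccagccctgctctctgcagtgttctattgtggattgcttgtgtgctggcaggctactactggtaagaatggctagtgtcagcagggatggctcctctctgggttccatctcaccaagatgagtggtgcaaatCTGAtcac
Snora23: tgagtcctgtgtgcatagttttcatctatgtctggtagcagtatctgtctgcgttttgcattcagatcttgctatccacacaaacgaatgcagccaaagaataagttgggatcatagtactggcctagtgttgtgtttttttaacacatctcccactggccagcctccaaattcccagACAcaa
Scarna6: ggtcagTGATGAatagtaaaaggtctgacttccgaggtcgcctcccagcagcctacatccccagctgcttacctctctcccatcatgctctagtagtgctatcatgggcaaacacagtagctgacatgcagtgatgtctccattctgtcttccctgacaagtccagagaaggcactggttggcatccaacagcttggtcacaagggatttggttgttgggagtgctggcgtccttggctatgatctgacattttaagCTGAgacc
Snord47: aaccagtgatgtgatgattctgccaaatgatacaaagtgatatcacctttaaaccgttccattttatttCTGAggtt
Snord32a: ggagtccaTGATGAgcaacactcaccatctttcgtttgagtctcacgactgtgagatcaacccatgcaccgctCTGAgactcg

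The symbols matched the boxes in the sequences for most members. CTGA in the last 12 bases was found in 69 of 82 box C/D members (84.1%) and in 6.22% of 18942 other transcripts searched the same way. TGATGA in the first 15 bases was found in 47 of 82 (57.3%), against 0.391% of the other transcripts, and Snord22, Snord118 and Snord15a were among those without these exact letters. ACA in the last 7 bases was found in 40 of 42 H/ACA members (95.2%), against 8.26% of the other transcripts. Of the 9 Cajal body RNAs, 4 held the box C letters, 5 the box D letters and 4 the ACA letters. On the opposite strand the box C letters were found in 0 of 82 box C/D members, the box D letters in 3 of 82 and the ACA letters in 3 of 42 H/ACA members. These matches are letters within a window and describe no binding.

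The 4 libraries held 15818334, 17335895, 16439475 and 14584388 expected counts in all, an expected count being the estimated number of reads assigned to a gene. Defining markers of T cells (Cd3d, Cd3e, Cd3g, Trac, Trbc2, Lck, Cd4 and Cd8a) summed to between 2288 and 2381 TPM, and 8 of 8 had at least 10 TPM in every library. TPM is the deposited transcript level, the count divided by the length that a read can start on and scaled to a fixed total. Library 4 stood apart in markers of other cells. The summed level of 6 B cell markers was 116 TPM there against 9.07 to 12.9 TPM in the other libraries, and 5 erythroid markers summed to 633 TPM against 15.2 to 62.3 TPM. In library 2, 4 neutrophil markers summed to 27.5 TPM against 8.64 to 9.55 TPM elsewhere, and 4 monocyte and macrophage markers summed to between 21.8 and 25.1 TPM in the 4 libraries. No marker of these lists was at 0 in all libraries. In such bulk RNA, fewer cells of a type and less RNA per cell cannot be told apart.

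Annotated length decided which members could take a count at all. For each of 34552 genes with a single transcript, the deposited effective length, the number of positions at which a read can start, was the annotated length minus 100 bases, or 0 where the gene had no more than 100 bases. All 72 members of up to 100 bases therefore had an effective length of 0 and were listed at 0 in every library, and 0 of the 2452 genes of effective length 0 in the whole table had a count. These 72 members were 70 of the 82 box C/D snoRNAs and 2 Cajal body RNAs, Scarna9 and Scarna17. A value of 0 for them is a property of the quantification and carries no information on their level in T cells. The remaining 61 members, called measurable below, were 12 box C/D, 42 H/ACA and 7 Cajal body RNAs.

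**Figure D1:**
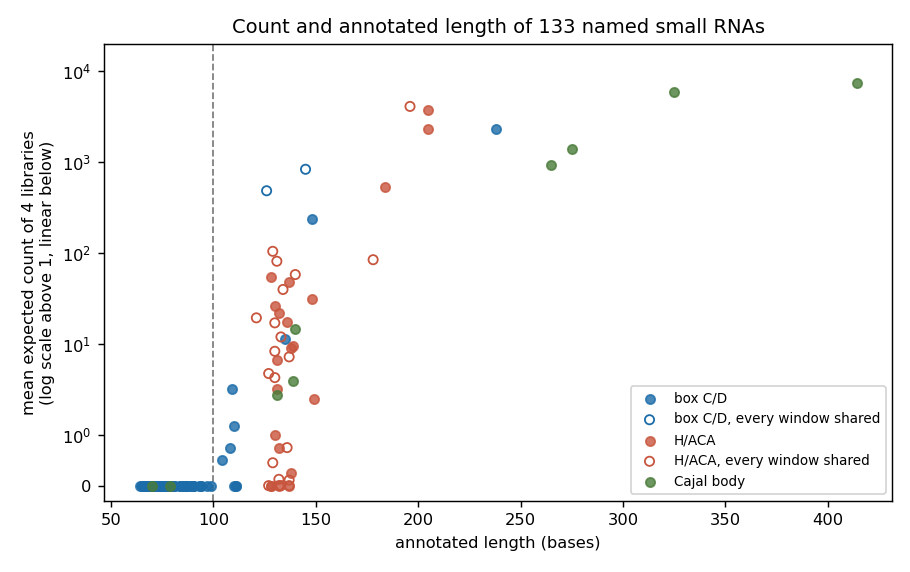
Mean expected count of the 4 libraries (vertical axis, log scale above 1 and linear below) against annotated length in bases (horizontal axis) for the 133 members, coloured by class. Open circles mark members that share every 101-base window with another transcript, and the dashed line stands at 100 bases. The 72 members left of the line lie at 0, and the 10 members over 150 bases lie above 80 counts.

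Among the measurable members, counts followed length. Of the 51 members of 101 to 150 bases, 21 had at least 3 counts in every library, 13 had at least 10, and 11 had no count in any library. All 10 members over 150 bases had at least 10 counts in every library. The 10 longer members took 92.9% of all member counts and the 51 shorter ones 7.07%. On the TPM scale, which divides by effective length, the longer members still held 75.2% of the summed member TPM, with a median of 1194 TPM against 8.59 TPM for the 51 shorter measurable members.

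In all, 50 members had any count, 31 had at least 3 counts in every library and 23 had at least 10. The 31 were 5 of 82 box C/D snoRNAs, 21 of 42 H/ACA snoRNAs and 5 of 9 Cajal body RNAs. They make 23.3% of all members and 50.8% of measurable members, beside 27.4% of all 55536 genes. Of 1035 other snoRNA and scaRNA genes with a measurable length, 57 (5.51%) had at least 3 counts in every library. The limit that a count of 0 allows, 3 counts, corresponds to 0.174 to 0.206 CPM (counts scaled to 1000000 counts on mouse genes) in a library, and covers counting error only.

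The 11 measurable members listed at 0 were the H/ACA snoRNAs Snora20, Snora28, Snora2b, Snora3, Snora35, Snora36b, Snora52 and Snora75 and the box C/D snoRNAs Snord67, Snord89 and Snord90. Effective length was only 10 or 11 bases for the 3 box C/D genes and 27 to 37 bases for the H/ACA genes. For Snora28, Snora3, Snora52 and Snora75, every 101-base stretch also stood in an annotated transcript of the host gene (Eif5, Rpl27a, Rplp2 and Ncl). Reads of that length from the snoRNA and from the host could thus not be told apart by sequence. The other 7 shared no such stretch. The length of 101 bases was inferred from the effective lengths, since the labels used here give no read length.

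Sharing of sequence with longer transcripts was common. Of 61 measurable members, 32 shared no 101-base window with another transcript, 6 shared some and 23 shared every window. At least 3 counts in every library were found for 15 of the 32, 5 of the 6 and 11 of the 23. By position, 53 of the 133 members lay wholly in introns, 73 overlapped an exon of another transcript, 48 of them an exon of a retained-intron transcript, and 7 lay between genes. For the members that share windows, the deposited count is an allocation by the quantifier. Whole-number counts in every library (to 0.005) were found for 15 of the 31 members with at least 3 counts, and fractional ones for 16.

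Box C/D snoRNAs took 0.0243% ± 0.00265 (SD, n = 4) of the counts on mouse genes, H/ACA snoRNAs 0.0714% ± 0.00560 and Cajal body RNAs 0.0980% ± 0.00355. All members together took 0.194% ± 0.0115 of the counts and 1.53% ± 0.112 of the TPM. The order of the classes by share of counts was the same in each of the 4 libraries. It was another order on the TPM scale, with 0.775% ± 0.0578 for H/ACA, 0.392% ± 0.00965 for Cajal body and 0.367% ± 0.0484 for box C/D RNAs, the last 2 of which overlapped between libraries. The 5 members with the most counts held 76.0% of member counts and the 10 with the most 95.4%.

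The RNAs of pre-ribosomal RNA processing were led by the Snora73 pair, H/ACA RNAs that act in cleavage of the precursor and not as modification guides. Snora73b stood at 2355, 2342, 2147 and 1908 TPM in libraries 1 to 4, a mean of 2188 ± 209 (SD, n = 4). Snora73a stood at 1500, 1409, 1321 and 1227 TPM, a mean of 1364 ± 117. For both RNAs library 1 was highest and library 4 lowest. Snora73b exceeded Snora73a in every library, by 0.68 ± 0.044 on the log2 scale, and no value of one overlapped the other.

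The genes of the Snora73 pair are both 205 bases long, lie within Snhg3 and are identical at 198 of 205 positions (96.6%), as the sequences above show. They share no exact 101-base window with each other, but their counts were fractional in all 4 libraries. Snora73a also shared 59 of its 105 windows with an annotated transcript of Snhg3, whose own level was 21.5 ± 0.703 TPM. The division of reads between the 2 genes is therefore uncertain, whereas their summed level, 421, 403, 370 and 331 CPM, does not rest on it. The sum still depends on the allocation of reads between Snora73a and Snhg3. Its counts stayed fractional, at 6642.33, 6962.55, 6068.85 and 4814.71.

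Snord22 belongs to the box C/D RNAs needed for processing of the small-subunit rRNA. It stood at 1511, 1034, 1065 and 959 TPM, a mean of 1142 ± 250, from 645, 475, 462 and 365 counts. Library 1 lay above the other 3, and its deposited 95% interval (1341 to 1566 TPM) overlapped none of theirs, the highest upper bound of which was 1118 TPM. The deposited intervals are given for each library alone and do not cover the spread between libraries. For some members they do not hold the TPM of the same library, as for Scarna2 in library 1 (1450 TPM, interval 1361 to 1424 TPM). Every one of its 26 windows is also held by annotated transcripts of its host Snhg1, which stood at 112, 121, 130 and 120 TPM, lowest in library 1.

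Snord118, needed for maturation of the large-subunit rRNAs and transcribed from a gene of its own, stood far lower in these tables. Its values were 20.9, 27.5, 20.6 and 9.77 TPM from 12, 17, 12 and 5 counts, a mean of 19.7 ± 7.33 TPM. The deposited intervals of the 4 libraries overlapped, with the lowest bound at 3.23 TPM and the highest at 40.9 TPM. Snord13, also of this group, had 2 counts in library 1 and none elsewhere; with an effective length of 4 bases, those 2 counts were listed as 30.5 TPM. Snord14a, Snord14c, Snord14d and Snord14e, of 86 to 90 bases, could take no count. Of the 9 genes of the group, 5 were measurable and 4 had at least 3 counts in every library.

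Among guide RNAs of the box C/D class, Snord15b and Snord17 stood at the level of Snord22. Snord17, 238 bases long in an intron of Snx5, had whole counts of 2499, 2342, 2416 and 1974 and a level of 1104, 960, 1050 and 978 TPM. Snord15b stood at 1340, 1050, 1143 and 1019 TPM, and Snord15a at 344, 298, 293 and 288 TPM. The ranges of Snord22, Snord15b and Snord17 overlapped, while that of Snord15a lay below all 3.

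The 2 Snord15 genes lie within the same host, Rps3, which encodes a small-subunit ribosomal protein. Snord15b exceeded Snord15a in 4 of 4 libraries, by 1.89 ± 0.083 on the log2 scale (mean ± SD). Aligned end to end, they were identical in 101 of 154 columns (65.6%) and shared no 101-base window. They differ in what surrounds them in the annotation. Snord15a is wholly intronic and its counts were whole, whereas every window of Snord15b is held by a retained-intron transcript of Rps3. Rps3 itself stood at 576 ± 24.4 TPM.

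The remaining measurable box C/D snoRNAs were at the limit of counting. Snord23, 109 bases long, had 1, 5, 4 and 3 counts, Snord8 had 2, 2, 1 and 0, and Snord43 had 0, 1, 1 and 1. Because their effective lengths are 8 to 10 bases, these counts were listed as mean levels of 21.9 TPM for Snord23, 7.38 TPM for Snord8 and 5.78 TPM for Snord43. Snord23 at 3.25 counts and Snord118 at 11.5 counts thus had similar mean TPM, and no order among these 4 can be read from them.

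The highest TPM of any member was that of Snora74a, an H/ACA snoRNA, at 2652, 2560, 2694 and 2583 TPM, a mean of 2623 ± 61.7. With a coefficient of variation (CV, SD over mean of CPM) of 3.09%, it also varied least of the members with at least 10 counts. Every one of its 96 windows is held by the overlapping gene AC121821.1, which was assigned 189 to 256 counts beside 3627 to 4346 for Snora74a. Below the Snora73 pair, Snora23 followed at 410, 389, 371 and 371 TPM from 456 to 577 whole counts, in an intron of Ipo7.

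The other named H/ACA snoRNAs stood well below these. Snora44 had a mean of 221 ± 47.2 TPM, Snora68 of 162 ± 32.5 and Snora78 of 118 ± 32.1. Snora7a followed at 88.8 ± 28.8 TPM, Snora21 at 80.1 ± 43.9, Snora64 at 71.7 ± 6.49 and Snora81 at 65.5 ± 28.7. From Snora7a to Snora81 the ranges over the libraries overlapped. Snora57, between genes, stood at 39.3 ± 13.7 TPM and Snora17 at 41.7 ± 15.7.

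**Figure D2:**
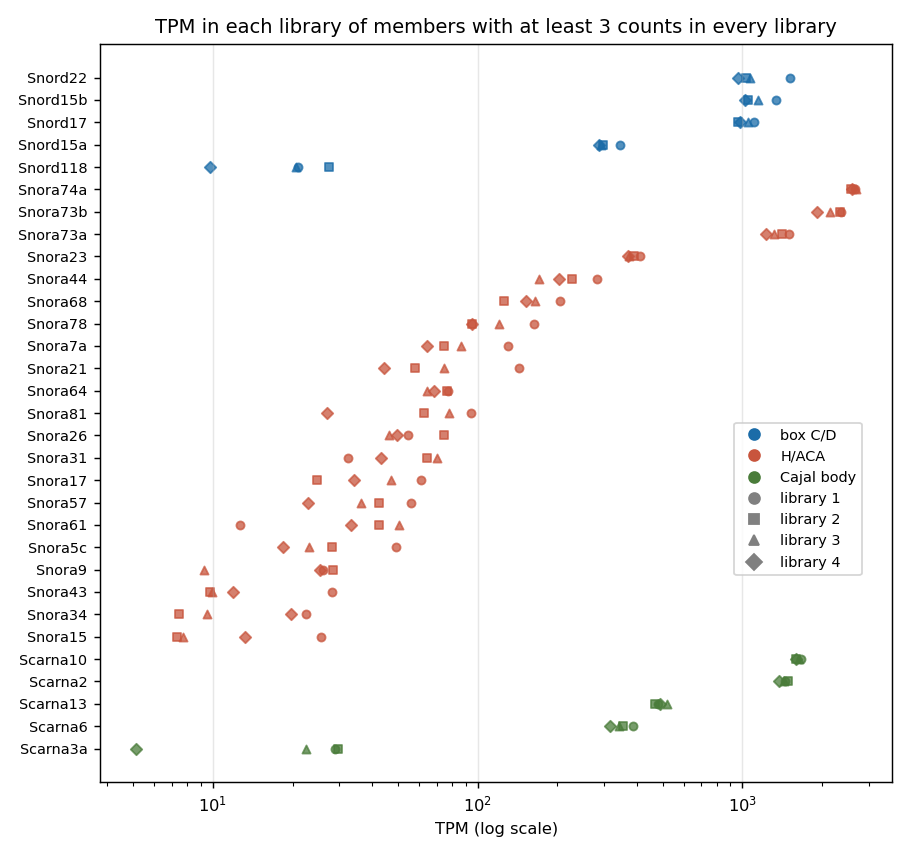
TPM (horizontal axis, log scale) in each of the 4 libraries for the 31 members with at least 3 counts in every library, grouped and coloured by class, with 1 marker shape per library. Snora74a sits close together between libraries at 2560 to 2694 TPM, while Snord22 runs from 959 to 1511 TPM and Scarna3a from 5.13 to 29.7 TPM.

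Cajal body RNAs were the class with the most counts. Scarna2, 414 bases long and between genes on chromosome 3, had 7470, 8228, 7502 and 6322 counts and stood at 1450, 1482, 1434 and 1377 TPM. Scarna10, which carries features of both classes and guides modification of a spliceosomal snRNA, stood at 1666, 1588, 1630 and 1587 TPM. Scarna10 was above Scarna2 in 4 of 4 libraries, by 0.17 ± 0.049 on the log2 scale. The second quantification, a deposited transcript table described further on, gave the opposite order in 4 of 4 libraries, with 489, 449, 497 and 407 TPM for Scarna10 and 1238, 1331, 1254 and 1177 TPM for Scarna2. The order of the 2 RNAs thus depends on the quantification. Of the 225 windows of Scarna10, 183 are shared with the host Ncapd2 or with Gm28967, a sense-intronic gene that was assigned no count.

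Scarna13 stood at 481, 467, 519 and 489 TPM and Scarna6 at 384, 355, 343 and 315 TPM. Both are over 250 bases long and share no window with another transcript, and their ranges did not overlap. Scarna3a, at 140 bases, had 19, 21, 15 and 3 counts, or 29.0, 29.7, 22.5 and 5.13 TPM, and was lowest in library 4. Scarna3b had 2.6 to 5 counts, and Scarna8 had 1, 6, 0 and 4.

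For 6 pairs of members, picked after their values had been seen, the log2 ratio of TPM in the first quantification had the same sign in 4 of 4 libraries. Beside the pairs given above, Scarna13 exceeded Scarna6 by 0.49 ± 0.152, Snora44 exceeded Snora61 by 2.82 ± 1.17 and Snord22 exceeded Snord118 by 5.93 ± 0.598. In the second quantification Scarna13 lay above Scarna6 in libraries 1 and 3 and below it in libraries 2 (4.36 against 6.23 TPM) and 4 (1.96 against 4.76 TPM). An exact permutation test, two-sided, that flips the signs of the 4 ratios cannot go below p = 0.125, which each pair reached, and the value adjusted over the 6 pairs was also 0.125. Snora44 and Snora61 both lie in exons of Snhg12 and share every window with it. Snora61 was lowest in library 1 (12.7 TPM against 33.3 to 50.4), where Snora44 was highest (282 TPM against 170 to 228).

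Members stood both above and below the genes that host them. Annotated hosts spanned 124 members, in 89 genes, of which 24 held more than 1 member. The 24 hosts whose symbols start with Rpl or Rps, ribosomal protein genes, held 33 members, of which 14 were measurable and 6 had at least 3 counts in every library. The 11 hosts named Snhg or Gas5, noncoding snoRNA hosts, held 20 members. Gas5 itself stood at 256 ± 14.7 TPM and Rpl13a at 2071 ± 64.3 TPM, but their annotated members (Snord47, Snord78 and 2 genes named Snord80 in Gas5, and Snord32a, Snord33, Snord34 and Snord35a in Rpl13a) are all under 100 bases and listed at 0.

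Of the 26 members with a host and at least 3 counts in every library, 13 had a higher mean TPM than their host and 13 a lower one. The largest excess was that of Scarna13, 8.58 on the log2 scale above Snhg10 at 1.28 TPM. The largest deficit was that of Snora31, whose level of 52.5 TPM was -5.95 on the log2 scale relative to Tpt1 at 3238 TPM. In ribosomal protein hosts, 1 of 6 members, Snord15b, exceeded its host. Across the 26 members, Spearman's rho between member and host TPM was -0.19, and across the 11 that share no window it was -0.25, given as a description over members of 1 set of libraries.

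**Figure D3:**
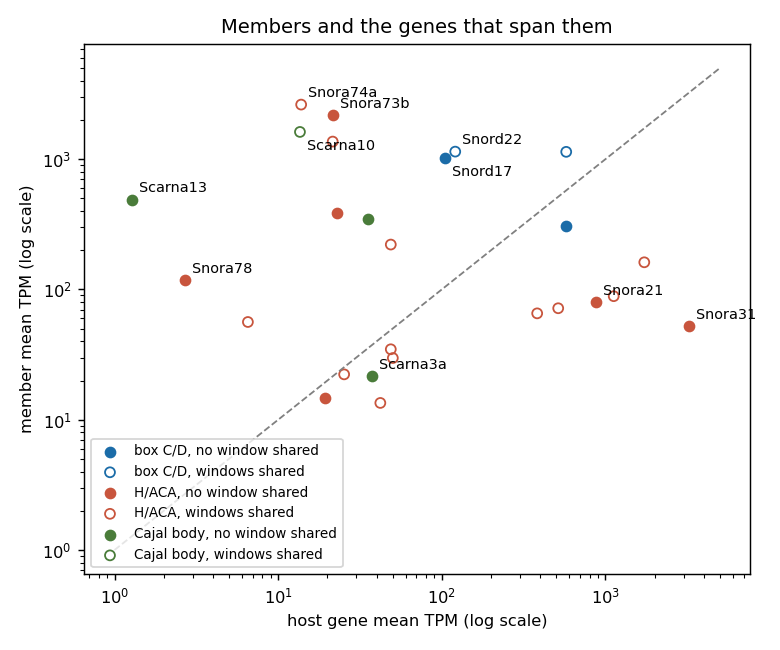
Mean TPM of 26 members with at least 3 counts in every library (vertical axis, log scale) against the mean TPM of the gene that spans them (horizontal axis, log scale), coloured by class, with open circles where 101-base windows are shared with another transcript. The dashed line marks equal levels, with 13 members above it and 13 below. Scarna13 lies farthest above it and Snora31 farthest below.

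Variation between the 4 libraries is given as the CV beside the part that counting error alone would give, which separate libraries usually exceed. Over the 23 members with at least 10 counts in every library, the median CV of CPM was 14.1% (range 3.09% to 56.4%), beside a median of 6.45% from counting error. For all 13186 genes with that many counts the median CV was 8.59% and the counting part 6.02%. In 14 of the 23 members (60.9%) the CV was over 2 times the counting part, beside 3499 of the 13186 genes (26.5%).

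The test across all genes was edgeR's goodness-of-fit test, which asks whether the counts of a gene vary between libraries beyond the trend of genes of like abundance. Of 24 members tested, 1 was called at an adjusted p under 0.05, beside 183 of 13118 genes (1.40%). The member was Snord22, with an edgeR adjusted p of 0.0156 and its highest value in library 1. Snord22 stood at 40.9, 27.5, 28.2 and 25.1 CPM and its host Snhg1 at 125, 138, 142 and 138 CPM in libraries 1 to 4. Since Snhg1 holds every window of Snord22, the count called is an allocation between the 2. The part of that allocation in the call was not tested. Without library 1 the edgeR adjusted p of Snord22 was 1.00 and 0 members were called. With a common dispersion in place of the trend its edgeR adjusted p was 0.0554, and Snora21 and Snora81 were called instead. Before adjustment, edgeR gave 7 of 24 members (29.2%) a p under 0.05, beside 4.89% of all genes: Snord22, Snora81, Snora73b, Snora21, Snora73a, Snord15b and Snora5c. Without library 1 this was 2 of 25 members (8.0%, beside 4.35% of all genes) and without library 4 it was 3 of 26 (11.5%, beside 5.31%), so the count rests on these 2 libraries.

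Snora21 and Snora81 varied most among the well counted members. Snora21, in an intron of the ribosomal protein gene Rpl23, had whole counts of 87, 38, 46 and 24, or 143, 58.1, 74.6 and 44.4 TPM, with a CV of 56.4%. Its library 1 interval (110 to 168 TPM) overlapped none of the other 3. Snora81, within Eif4a2, had 121, 86.6, 101 and 30.9 counts, or 94.2, 62.8, 78.1 and 27.0 TPM, and its library 4 interval (10.6 to 44.06 TPM) ended just below the lower bound of library 2 (44.08 TPM). Every one of the 78 windows of Snora81 is held by Eif4a2, which was assigned 7215 to 8600 counts, so the fractional counts of Snora81 are an allocation between the 2. Of the hosts, Rpl23 stood at 849 to 889 TPM, and Eif4a2 at 342, 379, 390 and 419 TPM, highest in library 4.

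Most members had their highest value in library 1. In CPM, 19 of the 23 members (82.6%) were highest in library 1 and 15 (65.2%) were lowest in library 4, beside 19.1% and 19.5% of the 13186 genes with at least 10 counts. The 51 members of 101 to 150 bases summed to 173, 128, 132 and 116 CPM, and the 10 longer ones to 1906, 1813, 1800 and 1682 CPM. Of the members with at least 10 counts, 11 of 13 in the shorter class and 8 of 10 in the longer class were highest in library 1. Without Snord22 the shorter class summed to 132, 100, 103 and 91.3 CPM, and its members sharing no window to 37.5, 28.4, 28.4 and 23.8 CPM.

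**Figure D4:**
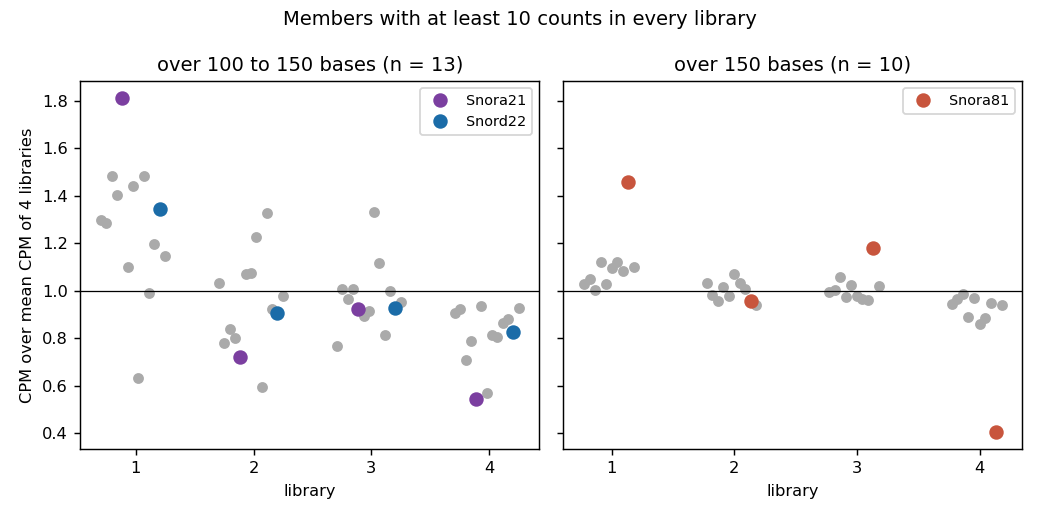
CPM of each member over its mean of the 4 libraries (vertical axis) by library (horizontal axis) for the 23 members with at least 10 counts in every library, 13 of 101 to 150 bases (left) and 10 over 150 bases (right). Points are members and are spread sideways for legibility. In library 1, 11 of the 13 and 8 of the 10 have their highest value. Snora21, Snord22 and Snora81 are coloured.

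Short genes outside the set were also most often highest in library 1. Of 37 other single-transcript genes of 101 to 150 bases with at least 10 counts, 22 (59.5%) were highest in library 1, and this class summed to 1247, 1025, 1054 and 1010 CPM. Of 60 other small RNA genes of 151 to 450 bases, 38 (63.3%) were highest there, though the summed level of this whole size class moved little, at 83334, 82986, 81975 and 80149 CPM. Gene copies given identical estimates were not merged in these numbers, so the genes counted are not all independent. Library 4, where most well counted members were lowest, is also the library with the higher B cell and erythroid marker sums given above. The part of the marker content in the order of the libraries was not tested.

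The second quantification, a table of transcripts with another column layout, gave a different picture of the same libraries. Only 5 members had a count in every library there: Scarna2, Scarna10, Scarna13, Scarna6 and Snord17, the shortest of 238 bases. Scarna2 had 3561, 4030, 3653 and 2934 counts and 1177 to 1331 TPM, below the 1377 to 1482 TPM of the first quantification. Scarna10 had a mean of 460 TPM from 747 to 1011 counts, beside 1618 TPM in the first. Scarna13 had 87, 8, 87 and 3 counts and Snord17 had 5 to 12, beside 1252 to 1515 and 1974 to 2499 in the first. The H/ACA class had 0 counts. No single-transcript gene under 200 bases had a count in that table, beside 506 of 6814 in the first. The levels above are thus those of the first quantification only.

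The listed genes of the proteins that these RNAs assemble with were all measured, as RNA. The TPM values below are those of the genes and not levels of the proteins. Of 32 protein genes of the pathway, 32 were tested and 0 were called by edgeR's goodness-of-fit test, beside 1.40% of all genes. Before adjustment 1 of them, Nop56, had an edgeR p under 0.05, beside 4.89% of all genes. Of the box C/D core, Fbl (fibrillarin, the methylase) stood at 67.9 ± 1.42 TPM, Nop58 at 68.6 ± 3.25 and Snu13 at 33.7 ± 4.08. Nop56, the remaining scaffold protein of that core, stood at 115, 139, 164 and 157 TPM, lowest in library 1 (edgeR adjusted p = 0.224).

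Of the H/ACA core, Dkc1 (dyskerin, the pseudouridine synthase) stood at 24.8 ± 1.93 TPM, Nhp2 at 20.5 ± 1.05, Nop10 at 24.1 ± 1.54 and Gar1 at 32.1 ± 4.21. Every value of Fbl, Nop56 and Nop58 lay above every value of the H/ACA core, whereas Snu13, at 27.6 to 35.8 TPM, lay within the range of that core. The 9 assembly factors ranged from 3.19 TPM for Naf1 to 18.1 TPM for Ruvbl2. Among nucleolar and Cajal body proteins, Npm1 stood at 266 TPM, Ncl at 179 TPM, and Coil, the marker protein of Cajal bodies, at 6.18 TPM. The 7 trimming and decay genes ranged from 11.4 TPM (Dis3) to 74.0 TPM (Xrn2).

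**Figure D5:**
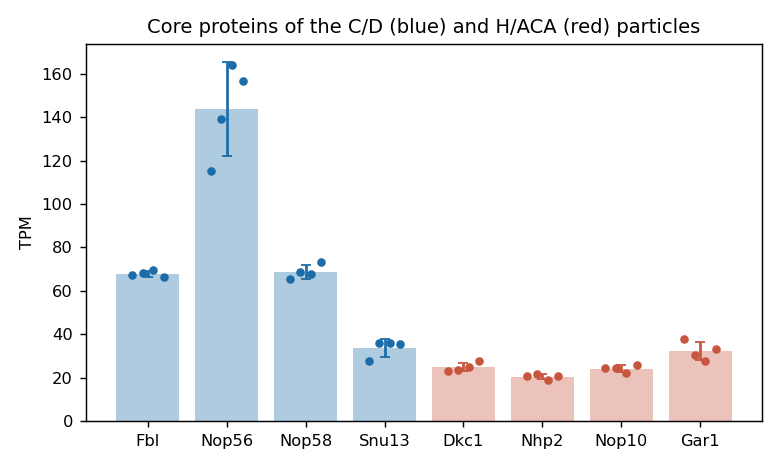
TPM (vertical axis) of the genes of the 4 core proteins of the box C/D particle (blue) and of the H/ACA particle (red). Points are the 4 libraries, bars are means and error bars are SD. Nop56 is highest, with a mean of 144 TPM, and Nhp2 lowest, with 20.5 TPM.

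2 related noncoding RNAs outside the naming rule help to place these levels. Terc, the telomerase RNA, which has an H/ACA domain, stood at 32.6 ± 2.10 TPM. The U3 box C/D RNA is annotated as 10 Rnu3 genes, some of which were given identical estimates, so that single copies are uncertain. Taken singly, 6 of the 11 genes of this group were called by edgeR, beside 1.40% of all genes. The 6 hold 3 distinct sets of values, since 4 of them were given identical estimates. The 2 genes named Rnu3a went in opposite directions in library 4, at 853 and 175 TPM. Summed, the 10 U3 genes stood at 1060, 850, 866 and 838 CPM, with a CV of 11.6%, again highest in library 1 and lowest in library 4.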

How the data were processed

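Total RNA was sequenced in 4 libraries of 1 group. Per the labels, the kit was stranded; values refer to mm10 and GENCODE M21 per the text deposited with each library. No source used here names the aligner or the quantifiers. The authors deposited expected counts and TPM per gene with 95% bounds in the column layout of RSEM, and a second transcript table of estimated counts and TPM in the layout of kallisto, which was summed per gene. TPM divides by effective length and was used as deposited. Reads were assigned to the reference, so those with CAST/EiJ variants could be lost.

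CPM was computed over 55536 mouse genes, without spike-ins (0.299% to 0.347% of counts) and numeric identifiers (at most 8.75e-05%). Windows of 101 bases, a length inferred from the effective lengths, were compared with all M21 transcripts by exact match on the transcript strand. Expected counts were rounded to whole numbers for edgeR 4.0.16 in R 4.3.3 (intercept only, TMM, trended dispersion, filterByExpr, goodness-of-fit test, Benjamini-Hochberg adjustment over 13118 genes at 0.05). Tested on simulated data over 12954 genes for this comparison, it called 60 of 99 genes changed 2-fold in 1 library, 94 of 99 changed 4-fold and 3 of 12756 unchanged ones. The simulated counts followed the trended dispersion that the test assumes, with no allocation of reads between overlapping genes. These rates therefore need not hold for the measured counts. DESeq2 1.42.0, Python 3.11.15, scipy 1.17.1, pandas 2.3.3 and Biopython 1.88 were also used.

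Alternatives were DESeq2 size factors, no filter on low counts, a common dispersion, other count minimums and pseudocounts, a denominator without the gene with the most counts, the second quantification and leaving out each library. Named members were the 10 highest by TPM of the box C/D and H/ACA classes, the 6 highest Cajal body RNAs, the 10 highest by count, members called, the 5 with the largest CV, the 5 that differed most between quantifications, and members of fixed groups (pre-rRNA processing, hosts Gas5, Snhg1 and Rpl13a) with at least 3 counts; others were named after their values were seen. No gene of a further fixed group, the imprinted domain of chromosome 12, was found under the rule. The members and lists were chosen with earlier results of these data known.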

Additional observations from a re-analysis of the deposited data

Results flagged for a closer look

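Of 43 levels checked for 1 library far from the other 3, 3 stood out, beside about 1 in 20 by chance. Snora9, in an exon of Snhg15 with which it shares every window, was lowest in library 3 at 0.313 CPM, against 0.847 to 0.957 CPM in the others. Its counts there were 5.12 against 12.3 to 16.5. The 139-base gene named Snora43 was highest in library 1 at 1.14 CPM, against 0.389 to 0.469 CPM. A second gene of that name, of 127 bases, lies within it, and the sum of both was a whole number in each library (18, 9, 20 and 10 counts, or 1.14, 0.521, 1.22 and 0.688 CPM), so that library 1 did not stand apart in the sum. Snu13, the gene of a core protein of box C/D particles, was lowest in library 1 at 27.6 TPM, against 35.6 to 35.8 TPM. That gap was on the TPM scale. The expected counts of Snu13 were 592, 676, 682 and 641 in libraries 1 to 4. In the second quantification they were 768, 826, 835 and 757, lowest in library 4. The edgeR goodness-of-fit test gave Snu13 an unadjusted p of 0.782.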

How the results depend on the processing

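The edgeR goodness-of-fit test called 1 member, beside 1.40% of all genes. DESeq2 size factors and no filter on low counts also gave 1, beside 1.40% and 1.16% of all genes. A common dispersion gave 2, beside 2.69%. The second quantification gave 0, beside 1.24% (of 2 tested, 0 of them at an unadjusted p under 0.05). Leaving out each library gave between 0 and 1, beside 0.873% to 1.12%. Without library 1 it was 0, with 2 of 25 at an unadjusted p under 0.05. Members with counts numbered 31, and 5 in the second quantification; minimums of 1 and 10 counts gave 36 and 23, and leaving out each library gave 31 to 33. In the second quantification the shares of counts were 4.80e-05% (box C/D), 0% (H/ACA) and 0.0261% (Cajal body), and without the gene with the most counts in the denominator 0.0278%, 0.0815% and 0.112%. The median log2(TPM + 1) was 0 for box C/D, 3.74 for H/ACA and 4.42 for Cajal body RNAs. Among members with at least 3 counts it was 9.99, 5.99 and 8.94, and with a pseudocount of 0.1 the box C/D value was -3.32. The median CV was 15.7% with TMM or DESeq2 scaling. Of 28 named levels, 27 moved by more than 1 SD in the second quantification, which listed members under 200 bases at 0. Leaving out a library cannot move a mean of 4 libraries by more than 1 SD, so that check could show no change. In an alternative added after seeing the data, the second quantification turned the mean log2 ratio of Scarna10 over Scarna2 to -1.44 and gave 0.65 ± 1.81 for Scarna13 over Scarna6. Why the quantifications differ was not tested. No paired analysis was possible because there is 1 group. Effective lengths under 50 bases make the TPM of members of 101 to 150 bases sensitive to single counts.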

Other observations

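The 17 genes named Snord115 or Snord116, which the naming rule left out, all had an effective length of 0 and 0 counts. Rps12, the host of Snord100 and Snora33, was itself called by the edgeR goodness-of-fit test, at 426, 538, 460 and 367 TPM in libraries 1 to 4 (adjusted p = 0.00638). Snord100 could take no count, and Snora33 had 0.39, 0, 0 and 1.42 counts. Of 49 other genes annotated as snoRNA or scaRNA that were tested, edgeR called 6, beside 1 of 24 members and 183 of 13118 genes (1.40%). The difference was not tested. These 49 were drawn by biotype alone, so they may hold the U3 genes, of which 6 were called above, 4 of them with identical estimates.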
